A study of Mus musculus with 30 samples.

Results

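The regulators described here are 10 genes through which a cell controls how many mitochondria it makes: Ppargc1a, Ppargc1b, Tfam, Tfb1m, Tfb2m, Nrf1, Gabpa, Esrra, Polg and Polrmt. They were picked by name for their known roles, and every probe that the platform annotation assigns to them was taken, which gave 13 probes on an array of 25697 probes and 16593 named genes. Mitochondrial biogenesis is driven from the nucleus. The coactivators PGC-1α (Ppargc1a) and PGC-1β (Ppargc1b) dock on DNA-bound factors, among them NRF1 (Nrf1), the GABP complex (Gabpa encodes its DNA-binding subunit) and the estrogen-related receptor ERRα (Esrra), and these switch on nuclear genes for the respiratory chain and for the machinery that copies and reads mitochondrial DNA. In that machinery TFAM packages mitochondrial DNA and starts its transcription together with TFB2M and the RNA polymerase POLRMT, TFB1M modifies mitochondrial ribosomal RNA, and POLG is the catalytic subunit of the mitochondrial DNA polymerase. PGC-1α is a textbook target of the deacetylase SIRT1, and in fasted liver it is also known for driving gluconeogenesis.

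Skeletal muscle and liver of male C57BL/6J mice were profiled on Illumina MouseRef-8 v2 arrays, with 5 arrays for each diet in each tissue and 30 arrays in all. All mice entered their diets at 28 weeks of age, and all received AIN-93G chow. The SRT2104 group ate it freely with 1.33 g per kg of SRT2104, a synthetic SIRT1 activator, which amounts to about 100 mg per kg bodyweight per day. The CR group received 40% less of the same chow, and the SD group ate the plain chow freely. The labels of the CR arrays give 41 weeks of age and 14 weeks on the diet, whereas those of the SRT2104 and SD arrays place tissue collection at the end of life, and the methods give 41 weeks of age for the arrays. Age at sampling and diet therefore cannot be told apart in the comparisons with CR. The sources do not name the muscle that was dissected.

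By RefSeq coordinates (GRCm38.p6) the genes lie at chr5:51454249-52115853 (Ppargc1a), chr18:61291445-61400756 (Ppargc1b), chr10:71225468-71238328 (Tfam), chr17:3519250-3557796 (Tfb1m), chr1:179528052-179546305 (Tfb2m), chr6:30047985-30153458 (Nrf1), chr16:84834891-84863783 (Gabpa), chr19:6910977-6922048 (Esrra), chr7:79446231-79467911 (Polg) and chr10:79736125-79746604 (Polrmt).

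Levels are given as scaled log2 levels. These are the log2 intensities after each array was brought to the same mean and spread over the probes kept in its tissue. A difference of 1 is thus a 2-fold difference in scaled intensity. Background was not subtracted, so folds given here are those of scaled intensities and not of RNA amounts. Probes with a detection p-value below 0.02 on 5 or more arrays of a tissue (15 arrays each) were kept, 10792 in muscle and 11065 in liver. Differences were tested with limma over all kept probes, and a probe is said to rise or fall where its Benjamini-Hochberg adjusted p was under 0.05. Each of the 10 genes had a kept probe in both tissues, 11 probes in each, and Tfam had 2. Detection was complete on all 15 arrays of a tissue except in muscle, where Ppargc1a and Nrf1 were each detected on 14 arrays (4 of the 5 CR arrays) and Gabpa on 10 arrays (2 SRT2104, 4 CR and 4 SD). The remaining Gabpa probes were not kept, since ILMN_1221800 was detected on 0 arrays, and ILMN_2758120 on 4 muscle and 3 liver arrays. Intensities of different probes are not comparable, so no gene is ranked above another.

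The tissue labels held for fibre and hepatocyte markers, with 1 clear exception. All 10 muscle fibre markers were kept in muscle and 0 of 10 in liver, and 8 of 10 hepatocyte markers were kept in liver. Marker sums, here and below, add scaled levels put back on the linear scale and are not measured intensities. In muscle, the 4 kept hepatocyte markers (Apoa1, Ttr, Apoc3, Ahsg) summed to 100400 on SRT2104 replicate 3, against 556.1 to 1140 on the other SRT2104 arrays, 519.8 to 977.1 on CR and 381.6 to 587.0 on SD arrays. Within each diet 1 muscle array correlated least with its group, SRT2104 replicate 3 (median r = 0.903, the others 0.985 to 0.989), CR replicate 3 (0.811, the others 0.964 to 0.981) and SD replicate 1 (0.966, the others 0.990 to 0.992). Calls on the members in muscle are therefore also given for the 12 arrays without these 3. The 3 arrays were picked from these same data as those least like their group, and leaving them out narrows the spread within groups. Adjusted p-values from fits without them are thus descriptive and no independent support. Over the 12 arrays, 2 of the 4 hepatocyte markers were still higher on SRT2104 than on SD (median change 0.53), where 31.8% of all probes were called. Before scaling, the median intensity of the kept probes in muscle was 223.8 to 266.4 on SRT2104, 154.7 to 287.8 on CR and 272.4 to 480.2 on SD arrays, so that the SRT2104 and SD arrays did not overlap. The part of this overall brightness in the results was not tested.

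Promoter windows of 300 bases, 250 before the start site and 50 from it on, were searched for 9 of the 10 genes, Nrf1 having 2 windows. The promoter of Ppargc1b was not searched. Several of these regulators are known to act on promoters of the others, so the windows were searched on both strands for the NRF1 element GCGCANGCG, the ETS core CCGGAAG that GABP binds, the estrogen-related receptor element AAGGTCA and the TGACG core of the cAMP response element. The ETS core was found in 4 of the 10 windows (Tfam, Gabpa, Polg, Polrmt), against 8.86% of 32851 RefSeq windows. The NRF1 element was found in 3 (Tfb2m, Esrra and, with 2 overlapping copies, Polrmt, against 6.25%), the TGACG core in 3 (Ppargc1a, Tfb1m, Polg, against 20.8%) and the receptor element in 0 (against 4.72%). No match overlapped a match to another of these motifs. A match describes letters only and shows no binding. The windows of Tfam, which fell in muscle on SRT2104, of Polrmt, which holds both the ETS core and the NRF1 element, and of Ppargc1a, which fell in liver on CR, are shown 5′ to 3′ from 250 bases before the start site to 30 bases from it on. Capitals mark the ETS core in Tfam (first base at position -47, counting the start base as 0), the TGACG core on the opposite strand in Ppargc1a (-49), and in Polrmt the ETS core (-43) and the NRF1 elements across the start site, both on the opposite strand.
Tfam, chr10:71238015-71238294, minus strand: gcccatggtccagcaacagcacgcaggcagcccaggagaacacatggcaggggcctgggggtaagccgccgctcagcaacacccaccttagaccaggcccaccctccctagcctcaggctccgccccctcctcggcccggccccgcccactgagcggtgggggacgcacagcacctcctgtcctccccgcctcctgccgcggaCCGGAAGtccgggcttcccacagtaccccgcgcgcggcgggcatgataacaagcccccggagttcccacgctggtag
Polrmt, chr10:79746552-79746831, minus strand: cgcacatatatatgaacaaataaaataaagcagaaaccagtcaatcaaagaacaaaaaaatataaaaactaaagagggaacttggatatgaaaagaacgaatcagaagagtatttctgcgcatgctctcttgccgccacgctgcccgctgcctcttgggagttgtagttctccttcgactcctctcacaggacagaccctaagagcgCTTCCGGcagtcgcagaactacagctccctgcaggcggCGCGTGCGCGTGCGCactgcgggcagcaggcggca
Ppargc1a, chr5:51567696-51567975, minus strand: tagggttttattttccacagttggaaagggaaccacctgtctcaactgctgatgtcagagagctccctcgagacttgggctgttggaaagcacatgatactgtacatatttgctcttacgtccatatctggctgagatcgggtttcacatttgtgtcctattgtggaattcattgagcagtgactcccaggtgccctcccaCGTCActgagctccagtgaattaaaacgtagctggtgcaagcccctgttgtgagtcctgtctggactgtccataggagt

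In muscle, Tfam was the regulator that fell on SRT2104, on both of its probes. Its gene product packages mitochondrial DNA and helps to start transcription there. On probe ILMN_2603178, the scaled log2 levels were 8.33, 8.36, 8.59, 8.10 and 8.52 on the 5 SRT2104 arrays (replicates 1 to 5), 8.92, 8.59, 8.99, 8.79 and 9.19 on CR, and 9.49, 8.997, 8.95, 8.83 and 8.93 on SD. Every SRT2104 array was below every SD array, while CR and SD arrays overlapped. On the other Tfam probe, ILMN_2603182, they were 8.01, 8.16, 8.32, 8.004 and 8.23 on SRT2104, 8.87, 8.64, 8.88, 8.67 and 9.16 on CR, and 9.11, 8.90, 8.54, 8.67 and 8.92 on SD. Here the SRT2104 arrays lay below all 10 other arrays. The group means were 8.38 ± 0.19 on SRT2104, 8.89 ± 0.22 on CR and 9.04 ± 0.26 on SD for the first probe, and 8.15 ± 0.14 on SRT2104, 8.84 ± 0.21 on CR and 8.83 ± 0.23 on SD for the second (standard deviation, n = 5 each). Against SD, Tfam fell by 0.66 on the log2 scale with SRT2104 (SE 0.14, with a 95% interval of -0.96 to -0.36, 1.58-fold lower, limma adjusted p = 0.00794) and by 0.68 (SE 0.12, -0.95 to -0.42, 1.604-fold lower, adjusted p = 0.00352). Over 12 arrays the differences were -0.60 (adjusted p = 0.00181) and -0.65 (adjusted p = 0.00117). Intensities before scaling were 258.0 to 379.8 on SRT2104 and 493.9 to 1350.0 on SD for ILMN_2603178, and 223.2 to 313.6 on SRT2104 and 380.8 to 999.1 on SD for ILMN_2603182. They did not overlap, but neither did the median intensities of these arrays, so this separation adds nothing to the scaled values. In whole tissue, fewer cells of a type and less RNA per cell cannot be told apart.

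These 2 probes were the member calls between SRT2104 and SD in muscle, 2 of 11 against 10.8% of all kept probes (1162 of 10792), and over 12 arrays 5 of 11 were called against 31.8%. The additional calls over 12 arrays were Ppargc1a, Nrf1 and Polrmt. Both calls over 15 arrays belong to 1 gene, and so few calls do not set the regulators as a group apart from other probes. The median change of the 11 probes was -0.07 against 0.06 over all probes. The groups were fully apart for 4 of the 11 probes (Ppargc1a and both Tfam probes lower, Nrf1 higher), as they were for 18.5% of all probes.

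The coactivator Ppargc1a had a lower mean on both diets than on SD without passing the test. Ppargc1a had scaled log2 levels of 8.45, 8.61, 8.39, 8.02 and 7.69 on SRT2104, 8.63, 8.20, 7.67, 8.22 and 8.09 on CR, and 8.76, 8.86, 8.85, 8.63 and 8.65 on SD. The SD arrays were tightly grouped (8.75 ± 0.11), the other diets spread more (8.23 ± 0.37 on SRT2104 and 8.16 ± 0.34 on CR), and no SRT2104 array reached an SD array. The difference between SRT2104 and SD was -0.52 (SE 0.18, interval -0.90 to -0.14, limma adjusted p = 0.0762), and it passed the threshold over 12 arrays (-0.56, adjusted p = 0.0266) and without CR replicate 3 alone (adjusted p = 0.0231). On CR the difference was -0.59 (interval -0.97 to -0.21, adjusted p = 0.228) and over 12 arrays -0.46 (adjusted p = 0.205).

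Ppargc1b, the paralog of Ppargc1a, had 9.12, 9.62, 8.98, 9.16 and 9.20 on SRT2104, 8.80, 8.73, 7.997, 8.997 and 8.72 on CR, and 9.39, 9.25, 9.51, 8.91 and 9.34 on SD. Its low values were on CR, above all on CR replicate 3, and the SRT2104 and SD ranges overlapped. It differed from SD by -0.07 on SRT2104 (interval -0.44 to 0.31, limma adjusted p = 0.837) and by -0.63 on CR (interval -1.01 to -0.26, adjusted p = 0.169, over 12 arrays -0.45 with adjusted p = 0.107). SRT2104 exceeded CR by 0.57 (interval 0.20 to 0.94, adjusted p = 0.0495, over 12 arrays 0.47 with adjusted p = 0.0158), a call lost in 11 of the 15 fits that left out 1 muscle array, with adjusted p up to 0.123, and kept without SD replicate 4, SRT2104 replicate 3, or CR replicate 3 or 4. It was also lost in 7 of 11 other settings (adjusted p up to 0.196), among them neqc, a background correction with quantile normalization (0.0711), quantile scaling alone (0.0559) and the replicate block (0.0715). No member was called between CR and SD in muscle by limma (0 of 11, with 2 probes, Ppargc1a and Ppargc1b, at an unadjusted p under 0.05), where 0.454% of all probes were called, and over 12 arrays it was 0 of 11 against 2.03%. The CR and SD arrays overlapped for all 11 probes, while they were apart for 3.38% of all probes.

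Among the DNA-binding factors, Nrf1 stood highest on SRT2104. Its scaled log2 levels in muscle were 8.10, 8.12, 7.96, 8.09 and 8.01 on SRT2104, 7.75, 7.90, 7.69, 7.78 and 7.91 on CR, and 7.65, 7.91, 7.85, 7.81 and 7.92 on SD. All 5 SRT2104 arrays were above all arrays of the other diets, but by little. The difference was 0.23 against SD (SE 0.08, interval 0.06 to 0.39, limma adjusted p = 0.0703) and 0.25 against CR (adjusted p = 0.0494), and over 12 arrays 0.21 (adjusted p = 0.0230) and 0.25 (adjusted p = 0.00902). The call against CR was lost in 12 of the 15 fits that left out 1 array, with adjusted p up to 0.115, and kept without SD replicate 1, SRT2104 replicate 3 or CR replicate 3. It was also lost in 8 of 11 other settings (adjusted p up to 0.191), the replicate block among them (0.0668). Before scaling, the Nrf1 intensities overlapped, at 236.1 to 258.3 on SRT2104 and 239.3 to 313.2 on SD, whereas after scaling they did not. Esrra and Gabpa did not pass any muscle test. Esrra, an orphan nuclear receptor that PGC-1α coactivates, lay between 10.31 and 10.93 on SRT2104, 10.02 and 10.67 on CR, and 10.28 and 10.81 on SD, with intervals of -0.26 to 0.38 for SRT2104 minus SD and -0.46 to 0.18 for CR minus SD. Gabpa lay between 6.97 and 7.24 on SRT2104, 7.09 and 7.52 on CR, and 7.17 and 7.43 on SD, close to the limit of detection on several arrays, with intervals of -0.32 to 0.07 and -0.17 to 0.23.

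Of the rest of the mitochondrial DNA machinery, Polrmt was the member that moved with the choice of arrays. This RNA polymerase had scaled log2 levels of 9.69, 9.65, 9.27, 9.53 and 9.83 on SRT2104, 9.22, 9.40, 9.49, 9.30 and 9.26 on CR, and 9.29, 9.41, 9.44, 9.39 and 9.48 on SD. The low SRT2104 array is replicate 3, the one with by far the highest hepatocyte markers, and the other 4 lay above every SD array. Before scaling, the Polrmt intensities overlapped and did not show a rise, at 609.2 to 907.5 on SRT2104 (median 707.2) and 701.3 to 1150.8 on SD (median 741.9). After scaling, the difference of Polrmt from SD was 0.19 over 15 arrays (interval -0.02 to 0.40, limma adjusted p = 0.243) and 0.24 over 12 arrays (interval 0.08 to 0.40, adjusted p = 0.0223), and its difference from CR was 0.26 (adjusted p = 0.108) and 0.38 over 12 arrays (adjusted p = 0.00152). Tfb2m, the partner of TFAM and POLRMT in starting transcription, had 9.18 to 9.67 on SRT2104, 9.31 to 10.26 on CR and 9.62 to 9.98 on SD. Its difference was -0.37 on SRT2104 (interval -0.71 to -0.03, adjusted p = 0.156, over 12 arrays -0.29 with adjusted p = 0.0551) and -0.10 on CR (adjusted p = 0.753). Tfb1m, the ribosomal RNA methyltransferase, lay between 7.68 and 8.03 on SRT2104, 7.69 and 8.34 on CR, and 7.59 and 8.03 on SD. Polg, the polymerase that copies mitochondrial DNA, lay between 7.51 and 7.72 on SRT2104, 7.47 and 7.77 on CR, and 7.33 and 7.63 on SD. Neither was called in a muscle comparison, and for SRT2104 minus SD their intervals were -0.21 to 0.33 for Tfb1m and -0.03 to 0.33 for Polg.

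**Figure D1:**
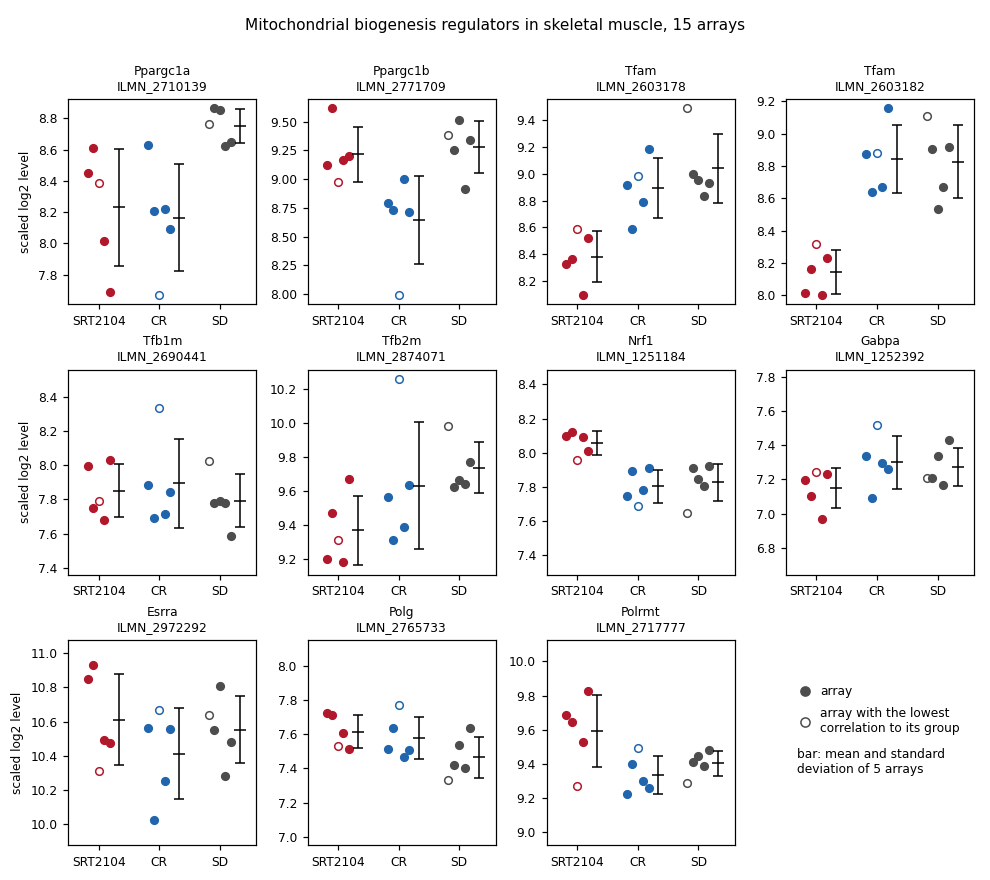
Scaled log2 level (vertical axis, with its own range in each panel) of the 11 kept probes on the 15 muscle arrays by diet. Points are arrays, open points the array of each diet that correlated least with its group, and bars the mean and standard deviation of 5 arrays. Both Tfam probes and Ppargc1a were lower on all SRT2104 arrays than on any SD array, and Nrf1 was higher. The groups were apart for 18.5% of all probes, and Ppargc1a and Nrf1 did not pass the test over 15 arrays.

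Set directly against CR, the SRT2104 muscles had lower Tfam, at -0.51 on ILMN_2603178 (interval -0.81 to -0.21, limma adjusted p = 0.0305) and -0.70 on ILMN_2603182 (interval -0.96 to -0.43, adjusted p = 0.00397). With Ppargc1b and Nrf1 higher this made 4 of 11 probes, against 10.7% of all probes. The count was 2 of 11 under neqc, quantile or median scaling, with the scores as deposited or with the replicate block, and 1 of 11 with no filter or with only these diets in the fit. In those settings with 2 of 11, between 751 and 1080 of all 10792 probes were called. With no filter 463 of 25697 probes were called, and with only these diets 523 of 10792. Over 12 arrays the member count was 5 of 11 against 34% (Tfam -0.54 with adjusted p = 0.00326 and -0.73 with adjusted p = 0.000511). The call on ILMN_2603178 was lost without SRT2104 replicate 1, 2 or 4 or CR replicate 1 or 5, with adjusted p between 0.0607 and 0.0890, and in 4 of 11 other settings (up to 0.0713). The groups were apart for Tfam ILMN_2603182 and Nrf1, as for 9.91% of all probes. The comparisons with SRT2104 share the SRT2104 arrays, and those with SD share the SD arrays.

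Markers of some other cell types also fell on SRT2104 in muscle. The 7 fibroblast markers summed to 7037 to 8447 on SRT2104, 9839 to 19440 on CR and 10010 to 12250 on SD, and 3 of them fell on SRT2104 against SD (Mgp, Lum and Col1a1, encoding matrix proteins). The 6 kept macrophage markers of 10 summed to 1115 to 1396 on SRT2104, 1563 to 2187 on CR and 1585 to 1825 on SD, with 3 lower (C1qb, C1qc and Lyz2). The 3 kept adipocyte markers of 7 (Adipoq, Lep, Cidec) summed to 456.8 to 559.0 on SRT2104, 768.7 to 15860 on CR and 953.9 to 1393 on SD, with 0 of 3 called. SRT2104 muscle was below SD muscle in these 3 sums. Called between SRT2104 and SD were 42.9% of the fibroblast and 50% of the macrophage markers, against 10.8% of all kept muscle probes. The 5 kept endothelial markers overlapped (1644 to 2058 on SRT2104, 1587 to 2322 on CR and 1704 to 2216 on SD, 0 of 5 called), as did the 2 kept erythroid markers (6732 to 13070 on SRT2104, 879.3 to 18980 on CR and 5510 to 13390 on SD), of which 1 was higher on SRT2104 than on SD. The part of these markers in the Tfam result was not tested. The summed fibre markers overlapped (270000 to 400500 on SRT2104 and 125800 to 343300 on SD), and 1 of 10 fell on SRT2104, Casq1, the calsequestrin of fast fibres (-2.05, SE 0.385, limma adjusted p = 0.00423).

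In liver, 3 of the regulators differed on CR, both coactivators and Esrra. Ppargc1a, the coactivator that fasting induces in hepatocytes, had scaled log2 levels of 9.46, 8.88, 8.89, 8.63 and 8.89 on SRT2104, 7.89, 7.87, 7.80, 7.73 and 8.15 on CR, and 8.07, 10.48, 9.56, 9.31 and 8.45 on SD. The CR arrays were uniformly low (7.89 ± 0.16), whereas the SD arrays spread widely (9.17 ± 0.95), SD replicate 1 reaching into the CR range. Ppargc1a fell by 1.28 on CR against SD (SE 0.31, interval -1.94 to -0.62, 2.43-fold lower, limma adjusted p = 0.00635). SRT2104 and SD overlapped, at -0.22 (interval -0.88 to 0.44, adjusted p = 0.747), and SRT2104 exceeded CR by 1.06 (interval 0.40 to 1.72, adjusted p = 0.0183), with no overlap between these groups. That last call was at adjusted p = 0.0501 without SRT2104 replicate 1.

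Ppargc1b was likewise lowest on CR in liver, with 9.56, 9.21, 9.66, 9.29 and 9.15 on SRT2104, 8.41, 8.55, 8.79, 8.57 and 8.39 on CR, and 9.11, 8.64, 9.91, 9.31 and 9.29 on SD. Only SD replicate 2 lay within the CR range. It fell by 0.71 on CR against SD (SE 0.17, interval -1.07 to -0.35, 1.64-fold lower, limma adjusted p = 0.00589), differed by 0.12 between SRT2104 and SD (interval -0.24 to 0.48, adjusted p = 0.746), and was 0.83 higher on SRT2104 than on CR (interval 0.47 to 1.19, adjusted p = 0.00189). The arrays that were low for Ppargc1a among the SD livers were replicates 1 and 5, and for Ppargc1b replicate 2, so the spread within SD was not shared by the paralogs.

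Esrra moved the opposite way. Its liver levels were 9.74, 9.89, 9.67, 9.58 and 9.84 on SRT2104, 10.26, 10.25, 10.27, 10.26 and 10.35 on CR, and 9.82, 9.46, 9.60, 9.77 and 10.01 on SD. The 5 CR livers were almost identical and above every SRT2104 and SD liver, so that the receptor was higher where the coactivators it works with were lower. The rise on CR was 0.55 against SD (SE 0.09, interval 0.35 to 0.74, 1.46-fold, limma adjusted p = 0.000405), SRT2104 minus CR was -0.54 (interval -0.73 to -0.34, adjusted p = 0.000437), and SRT2104 minus SD was 0.01 (interval -0.18 to 0.20, adjusted p = 0.976).

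Ppargc1a, Ppargc1b and Esrra made 3 of 11 member probes called between CR and SD in liver, against 26.7% of all kept probes (2954 of 11065), and the same 3 of 11 between SRT2104 and CR, against 27.1%. Esrra was the only one of the 11 whose CR and SD arrays did not overlap, against 16.2% of all probes. The SRT2104 and CR livers were apart for all 3, as for 21.8% of all probes. The share of regulators called in liver was thus that of the background. Under median scaling Nrf1 and Polrmt were called between CR and SD as well, and the methods' t-test after adjustment called Esrra alone (adjusted p = 0.0735 for Ppargc1a and 0.0561 for Ppargc1b). Between SRT2104 and SD, 0 of 11 were called by limma (0 also at an unadjusted p under 0.05) against 3.16%, the intervals for the 11 probes ranging from -0.88 to 0.48. These groups overlapped for each of the 11 probes and were apart for 4.87% of all probes.

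The mitochondrial DNA machinery overlapped between diets in liver. Tfam had 9.86 to 10.15 on SRT2104, 9.98 to 10.25 on CR and 9.83 to 10.56 on SD on ILMN_2603178, and 9.73 to 10.07 on SRT2104, 9.82 to 10.19 on CR and 9.66 to 10.30 on SD on ILMN_2603182. For SRT2104 minus SD the Tfam differences were -0.18 (interval -0.43 to 0.08) and -0.11 (interval -0.36 to 0.14). The muscle estimates (-0.66 and -0.68) lay outside these intervals. For ILMN_2603178, however, the muscle interval (-0.96 to -0.36) overlapped the liver one, and the tissue difference did not pass its test (limma adjusted p = 0.0617). Tfb1m lay between 8.19 and 8.40 on SRT2104, 8.34 and 8.54 on CR, and 7.998 and 8.71 on SD. Tfb2m lay between 9.45 and 9.83 on SRT2104, 9.64 and 9.83 on CR, and 9.58 and 9.89 on SD. The differences from SD were -0.10 on SRT2104 and 0.08 on CR for Tfb1m, and -0.06 and 0.00 for Tfb2m. Polrmt lay between 10.43 and 10.67 on SRT2104, 10.45 and 10.73 on CR, and 10.62 and 10.81 on SD, and differed by -0.12 on SRT2104 (adjusted p = 0.371) and -0.15 on CR (adjusted p = 0.129) by limma. Polg lay between 8.18 and 8.34 on SRT2104, 8.14 and 8.23 on CR, and 8.10 and 8.54 on SD. Among the DNA-binding factors, Nrf1 had 8.50 to 8.67 on SRT2104, 8.58 to 8.79 on CR and 8.36 to 8.63 on SD, at 0.17 on CR (interval 0.01 to 0.32, adjusted p = 0.0970), and Gabpa had 7.86 to 8.50 on SRT2104, 7.83 to 8.01 on CR and 7.77 to 8.13 on SD. None of these passed the test in a liver comparison.

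**Figure D2:**
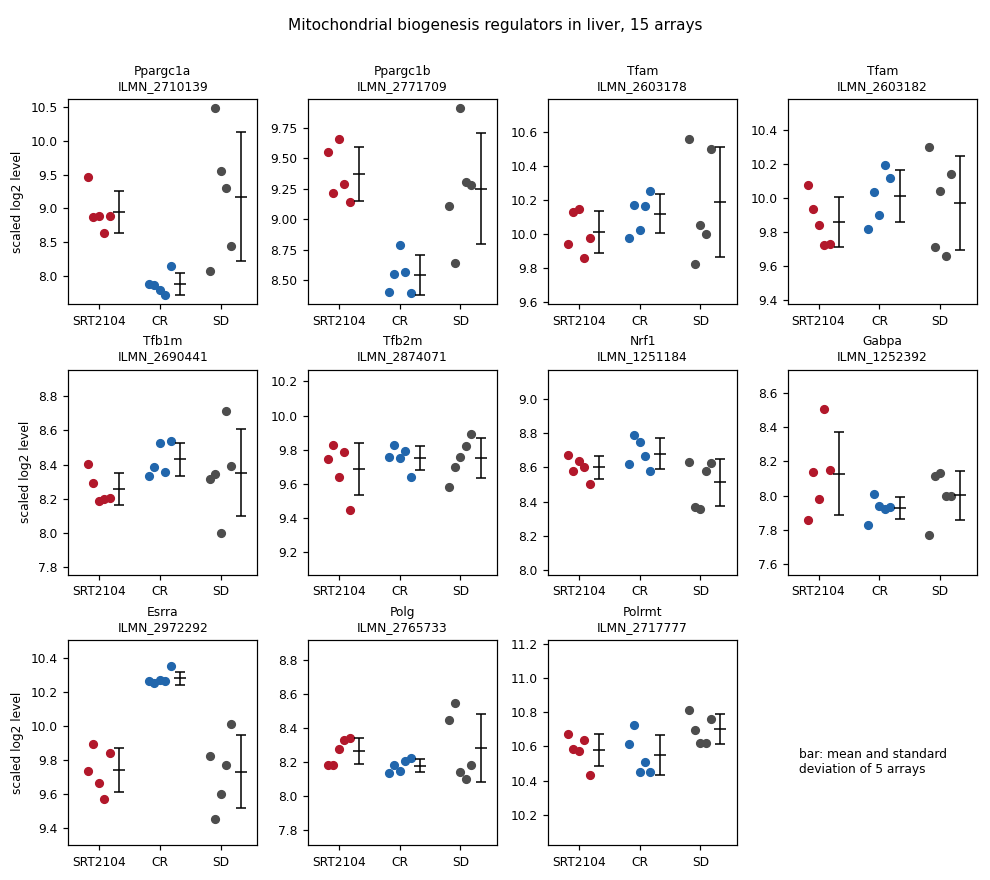
Scaled log2 level (vertical axis, with its own range in each panel) of the same 11 probes on the 15 liver arrays by diet. Points are arrays and bars the mean and standard deviation of 5 arrays. Ppargc1a and Ppargc1b were lowest and Esrra highest on CR, with Esrra on CR between 10.25 and 10.35.

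In liver the cell type markers moved as well. The 7 kept macrophage markers of 10 summed to 4603 to 5199 on SRT2104, 3631 to 4655 on CR and 4171 to 6458 on SD, with 4 of 7 lower on CR than on SD, and the 8 kept hepatocyte markers to 268300 to 416800 on SRT2104, 251700 to 299800 on CR and 193000 to 272200 on SD. Of these 8, 4 were higher on CR than on SD (median change 0.35) and 4 were higher on SRT2104 than on SD (median change 0.42). Of all kept liver probes, 26.7% were called between CR and SD but only 3.16% between SRT2104 and SD. The 5 kept fibroblast markers of 7 summed to 10090 to 14070 on SRT2104, 11430 to 12570 on CR and 8107 to 10620 on SD, so that CR and SD were apart, with 1 of 5 higher on CR. Of 2 kept erythroid markers 1 was lower on CR, at sums of 18550 to 27750 on SRT2104, 13020 to 25750 on CR and 12180 to 24240 on SD. The 4 kept endothelial and 2 kept adipocyte markers gave 0 calls between CR and SD. Their part in the changes of Ppargc1a, Ppargc1b and Esrra was not tested. The liver arrays correlated with their own group at 0.973 to 0.993.

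**Figure D3:**
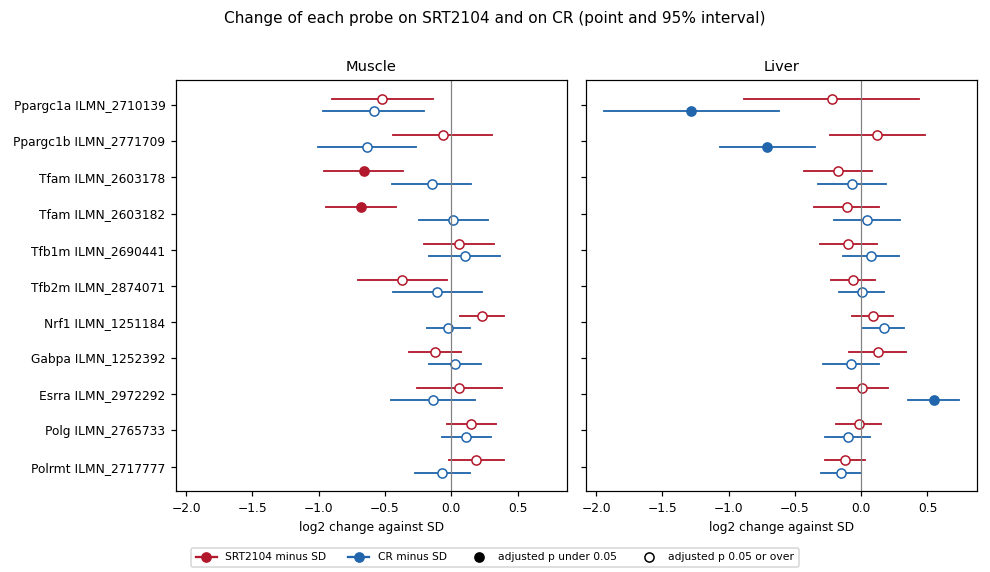
log2 change of each probe on SRT2104 (red) and on CR (blue) against SD (horizontal axis) in muscle and in liver. Points are the limma estimates, lines their 95% intervals and filled points have an adjusted p under 0.05. The filled points are Tfam on SRT2104 in muscle (-0.66 and -0.68), and Ppargc1a (-1.28), Ppargc1b (-0.71) and Esrra (0.55) on CR in liver.

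Whether a diet acted differently in the tissues was tested directly over all 30 arrays, scaled together over the 8998 probes kept in both. For Tfam ILMN_2603182 the SRT2104 effect was more negative in muscle than in liver (difference -0.63, SE 0.17, interval -0.99 to -0.28, limma adjusted p = 0.0167), a call kept in each of the 30 fits that left out 1 array. For ILMN_2603178 the difference was -0.55 (adjusted p = 0.0617), and with the replicate block it passed (limma adjusted p = 0.0494). Over 27 arrays, without the 3 muscle arrays named above, the differences were -0.60 for ILMN_2603182 (adjusted p = 0.0104) and -0.48 for ILMN_2603178 (adjusted p = 0.0402). This was 1 of 11 member probes against 11% of all probes, and over 27 arrays 3 of 11 against 28.8%, the additional call being Polrmt (0.37, adjusted p = 0.00657, against 0.31 with adjusted p = 0.114 over 30 arrays). For CR, the effect on Esrra was lower in muscle than in liver (-0.68, SE 0.18, interval -1.05 to -0.30, adjusted p = 0.0389), 1 of 11 probes against 3.47% of all probes, and 1 of 11 against 9.98% over 27 arrays (-0.71, adjusted p = 0.0116). The Esrra call was lost in 12 of the 30 fits that left out 1 array (muscle SD replicate 1, 2 or 3, muscle CR replicate 2 or 4, liver SD replicate 2 or 3, or any liver CR replicate), with adjusted p of 0.0527 to 0.0791, and in 3 of 6 other settings (neqc, the scores as deposited and the other filter, adjusted p up to 0.127). The CR effects on Ppargc1a and Ppargc1b could not be told apart between the tissues, with differences of 0.59 (interval -0.19 to 1.37) and -0.0045 (interval -0.53 to 0.52), so the lack of a call in muscle does not show that these genes were spared there.

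Between the tissues on SD, 7 of 11 member probes were called, against 74.8% of the 12859 probes kept in either tissue, and 4 of 11 under neqc or quantile scaling, where Polg, Tfam and Gabpa did not pass. On this joint scale and on SD, Esrra averaged 11.10 ± 0.21 in muscle and 9.34 ± 0.20 in liver, Tfb2m 10.22 ± 0.16 in muscle and 9.36 ± 0.11 in liver, and Ppargc1b 9.73 ± 0.25 in muscle and 8.90 ± 0.42 in liver (standard deviation, n = 5 each). These 3 were higher in muscle, by 1.76 (limma adjusted p = 4.43e-12), 0.86 (adjusted p = 2.3e-06) and 0.83 (adjusted p = 0.000373). Lower in muscle were Polrmt, at 9.86 ± 0.07 in muscle and 10.23 ± 0.08 in liver (-0.37, adjusted p = 0.000642), and Polg, at 7.76 ± 0.11 in muscle and 8.01 ± 0.19 in liver (-0.25, adjusted p = 0.00555, with 0.0659 under neqc and 0.0780 under quantile scaling). Tfam ILMN_2603182 (-0.32, adjusted p = 0.0215) and Gabpa (-0.20, adjusted p = 0.0425) were also lower, and neither of these calls held with every array left out in turn. The Tfam call was lost without muscle SD replicate 3 or 4 or liver SD replicate 1 or 5 (adjusted p up to 0.0856), and the Gabpa call without muscle SD replicate 1, 2 or 4 or liver SD replicate 2, 3, 4 or 5 (adjusted p up to 0.108). Ppargc1a, Tfb1m and Nrf1 were not called, with intervals of -0.23 to 0.87, -0.20 to 0.27 and -0.22 to 0.09. Over 27 arrays 8 of 11 were called against 79.7% of all probes, Tfam ILMN_2603178 joining them (-0.42, adjusted p = 0.00355). That probe also passed with the replicate block (-0.29, limma adjusted p = 0.0467).

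**Figure D4:**
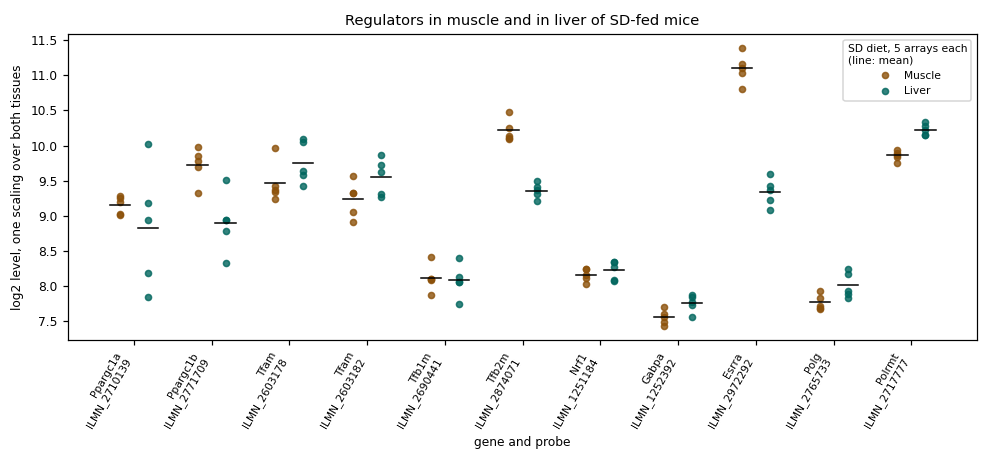
log2 level on a single scaling over both tissues (vertical axis) of the 11 probes (horizontal axis) in muscle (brown) and liver (green) of SD mice. Points are arrays, 5 per tissue, and lines are means. Esrra, at 11.10 in muscle and 9.34 in liver, shows the widest gap between tissues, and Ppargc1a the widest spread within liver.

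Around these members, further genes of the pathway were read from lists by role, each gene by its brightest kept probe. On SRT2104 in muscle, 2 of the 15 kept genes of mitochondrial DNA replication and maintenance were lower than on SD and 0 higher, a median of -0.01 against 0.06 over all probes. They were Slc25a36, a mitochondrial pyrimidine nucleotide carrier (-0.72, SE 0.10, limma adjusted p = 0.00057), and Fbxl4, a mitochondrial F-box protein that maintains mitochondrial DNA (-0.72, SE 0.17, adjusted p = 0.0140). Over 12 arrays they were lower as well (-0.66 with adjusted p = 0.000127 and -0.57 with adjusted p = 0.00712). Of 20 kept genes of mitochondrial transcription and RNA handling, 1 was higher, Hsd17b10, a subunit of mitochondrial RNase P (0.77, adjusted p = 0.0340), and 0 lower, at a median of -0.07. Grsf1 (-0.41, adjusted p = 0.0648) and Rexo2 (-0.53, adjusted p = 0.0914) did not pass. Called were 13.3% and 5% of these lists, against 10.8% of all probes. Over 12 arrays the counts were 4 higher and 2 lower of 15, and 5 higher and 3 lower of 20, which is 40% of each list against 31.8% of all probes.

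Among 16 kept coactivators, corepressors and partner factors, 1 was lower on SRT2104 than on SD in muscle, Mef2a, a myocyte enhancer factor that PGC-1α coactivates (-0.50, SE 0.09, limma adjusted p = 0.00330), and 0 higher, at a median of -0.01. None of the 19 kept genes that signal to PGC-1α was called over 15 arrays (0 of 19), against 10.8% of all probes, and over 12 arrays 6 were higher and 2 lower (42.1% against 31.8%). Prkaa2, the α2 catalytic subunit of AMP-activated kinase, differed by -1.12 on SRT2104 (adjusted p = 0.0946, over 12 arrays -1.13 with adjusted p = 8.41e-05). Sirt1, the stated target of SRT2104, had 7.73, 7.68, 7.85, 7.74 and 7.65 on SRT2104, 8.03, 7.97, 8.43, 7.86 and 8.01 on CR, and 8.66, 8.20, 8.04, 7.94 and 7.77 on SD. The SRT2104 arrays were low in Sirt1 mRNA, and 1 of them lay above the lowest SD array, with a difference of -0.39 (SE 0.15, adjusted p = 0.0985, over 12 arrays -0.29 with adjusted p = 0.0198). In liver Sirt1 differed by -0.08 on SRT2104 and 0.07 on CR and was not called.

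Downstream, 0 of 25 kept genes of the respiratory chain and of other mitochondrial targets of NRF1, GABP and ERRα were called on SRT2104 in muscle over 15 arrays, against 10.8% of all probes. Over 12 arrays 6 were lower and 0 higher (24% against 31.8% of all probes). The values nearest the threshold were Acadm, a fatty acid oxidation enzyme (-0.68, limma adjusted p = 0.0547, over 12 arrays -0.86 with adjusted p = 0.00125), and Cox4i1, a cytochrome oxidase subunit (0.55, adjusted p = 0.0929). Of 17 kept genes that PGC-1α raises in muscle, 1 was lower, Pdk4, the kinase that shuts off pyruvate dehydrogenase (-1.11, SE 0.26, adjusted p = 0.0129, over 12 arrays -1.06 with adjusted p = 0.00306), and 0 higher. Pdk4 is also among the liver genes of PGC-1α, of which 6 were kept in muscle. On CR in muscle, 0 genes of any of these lists were called by limma over 15 arrays. Over 12 arrays Mef2c (-0.68, adjusted p = 0.0321) and Prkaa2 (-0.92, adjusted p = 0.00609) were lower on CR.

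On CR in liver, 9 of 25 kept respiratory chain and target genes were higher than on SD and 1 lower (Cox5b), at a median of 0.12 against 0.00 over all probes. The leading genes were Alas1, the rate-limiting enzyme of heme synthesis (1.92, SE 0.30, limma adjusted p = 0.000257), Vdac1, the main channel of the outer mitochondrial membrane (0.46, adjusted p = 0.000322), and Hspd1, the mitochondrial chaperonin (0.47, adjusted p = 0.00429). The share called, 40% of the list, stood beside 26.7% of all probes. Alas1 is also a known target of PGC-1α in liver, and in that list 2 of 11 kept genes were higher and 2 lower (36.4% called). Cyp7a1, the rate-limiting enzyme of bile acid synthesis, rose by 1.78 (adjusted p = 0.00125), whereas Lpin1, a phosphatidate phosphatase and PGC-1α cofactor, fell by 1.51 (adjusted p = 0.00909) and Pck1, the gluconeogenic carboxykinase, by 0.65 (adjusted p = 0.0431). The PGC-1α targets in liver thus did not move one way.

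The other lists in CR liver gave 0 higher and 3 lower of 15 for mitochondrial DNA replication, namely Top1mt, the mitochondrial topoisomerase (-0.41, limma adjusted p = 0.000417), Primpol (-0.31, adjusted p = 0.00600) and Tk2, the mitochondrial thymidine kinase (-0.28, adjusted p = 0.0144). For mitochondrial transcription and RNA handling it was 3 higher and 3 lower of 20, led by Fastkd1 (0.63, adjusted p = 0.000678), Elac2 (-0.37, adjusted p = 0.00210) and Mterf4 (-0.48, adjusted p = 0.00282), all of which process mitochondrial RNA or regulate its use. Of 15 partner factors 2 were higher and 2 lower, of 18 signalling genes 2 were higher (Mapk14, 0.57 with adjusted p = 0.000308, and Prkag2, 0.53 with adjusted p = 0.000814) and 1 lower (Prkaa2, -0.41 with adjusted p = 0.0182), and of 10 kept muscle targets of PGC-1α 3 were higher and 3 lower. In this order, the lists had 20%, 30%, 26.7%, 16.7% and 60% of their genes called, against 26.7% of all probes. On SRT2104 in liver, 1 gene of these lists was lower, Tk2 (-0.36, adjusted p = 0.0201), and 1 higher, the ATP synthase subunit Atp5b (0.33, adjusted p = 0.0489). These were 6.67% and 4% of their lists, against 3.16% of all probes. The lists were put together with earlier results of these data known, so their counts are descriptive.

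The probes most like each called member over the 15 arrays of a tissue were also read out, by Pearson's r, as a description over arrays that share the same diets and scaling. For Tfam in muscle they were Rdh14 (r = 0.940 with ILMN_2603178 and 0.942 with ILMN_2603182), Trappc2 (0.945 with ILMN_2603182), Rnf6 (0.928) and Eif4enif1 (0.928, both with ILMN_2603178). For Ppargc1b in muscle they were Magix (0.951), Akap1 (0.890) and Dusp8 (0.889), and for Nrf1 Atp9a (0.923), Mars1 (0.911) and Mfn1 (0.904). In liver they were Ackr2 (0.932), Reps1 (0.922) and Rcl1 (0.911) for Ppargc1a, Ubxn8 (0.907), Atp6v0a1 (0.897) and Fcgrt (0.892) for Ppargc1b, and Ncbp3 (0.956), Kctd2 (0.945) and Pbld2 (0.943) for Esrra. No gene stood in more than 1 of these sets of the closest 3 except Rdh14, which followed both Tfam probes.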

How the data were processed

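Total RNA of muscle and liver was labelled and hybridised to Illumina MouseRef-8 v2 arrays by the authors. The deposited intensity table, exported per the labels with GenomeStudio 1.6.0, gives an unnormalized signal and a detection p-value per probe and array. Its column names hold a number, the diet and the tissue, and the same numbers recur in muscle and liver. What these numbers identify is not stated. The deposited score table gives, per sample, the natural log of that signal centred and scaled per array by the authors (z-score), and each of its 30 columns matched exactly 1 intensity column within 0.001. Scores, which carry the replicate number, were therefore the basis of the tests, rescaled over the kept probes and turned into log2 units. Probe genes came from the platform annotation.

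For each tissue the 3 diets were fitted together in limma 3.58.1 (R 4.3.3) over 15 arrays, with Benjamini-Hochberg adjustment over all kept probes at 0.05. The annotation gave 1 symbol to 23978 of 25697 probes, several to 0 and none to 1719. The design gives 5 mice per group, and the number of arrays limits the precision. No source says that equal replicate numbers mark the same mouse, and the main fits carry no replicate block. Alternatives were neqc, quantile and median scaling, the scores as deposited, other filters, 2 diets per fit, the methods' t-test, a replicate block, leaving out each array, and 12 muscle (27 joint) arrays. The fits were tested on simulated data. Members and lists were chosen with earlier results of these data known. All 10 members are named with every probe, and of each other list the 3 genes with the smallest adjusted p against SD in a tissue, with Sirt1. The marker Casq1 follows that rule, while Cox5b was named after its value was seen. Figures were drawn with matplotlib 3.10.9 (Python 3.11.15).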

Additional observations from a re-analysis of the deposited data

Results flagged for a closer look

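Among the 66 sets of 5 arrays (11 probes, 2 tissues and 3 diets), 3 held an array whose gap to its nearest neighbour took more than 0.71 of the range, and chance alone gives this in about 5% of sets. Tfam ILMN_2603178 on muscle SD replicate 1 was at 9.49 with the next array at 8.997 (gap share 0.752). Ppargc1b on muscle CR replicate 3 was at 7.997 with the next at 8.72 (0.72). Esrra on liver CR replicate 5 was at 10.35 with the next at 10.27 (0.83), in a group whose whole spread was small. The 2 muscle arrays are among those left out in the 12-array fits, in which Tfam was still lower on SRT2104 than on SD (-0.60, limma adjusted p = 0.00181) and Ppargc1b on CR stayed short of the threshold (-0.45, adjusted p = 0.107).

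2 members had a diet effect that differed between the tissues by the test of the difference. For Tfam ILMN_2603182 the SRT2104 effect in muscle minus that in liver was -0.633 (limma adjusted p = 0.0167), and for Esrra the CR effect in muscle minus that in liver was -0.676 (adjusted p = 0.0389). The Tfam call was kept in all 30 fits without 1 array and in 6 of 6 other settings, whereas the Esrra call was lost in 12 of 30 and in 3 of 6 (adjusted p up to 0.127).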

How the results depend on the processing

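No change of processing turned the direction of a member result that had been called, and both Tfam probes were called between SRT2104 and SD in muscle under neqc, quantile, median and as-deposited scaling and under the replicate block. Of 11 member probes, the calls between SRT2104 and SD in muscle were 2, with 5 when only these diets were fitted, 5 by the methods' t-test without adjustment and 5 over 12 arrays. Between SRT2104 and CR in muscle the member calls were 4, with 2 under neqc, 2 under quantile and 2 under median scaling, 2 with the scores as deposited, 1 with no filter, 1 when only these diets were fitted, 2 by the t-test after adjustment and 2 with the replicate block. Of all 10792 kept probes, 1152 were called in the main fit, 808 under neqc, 874 under quantile and 1031 under median scaling. It was 751 with the scores as deposited, 523 with only these diets and 1080 with the replicate block. With no filter, 463 of 25697 probes were called. Between CR and SD in muscle the member calls were 0, with 2 by the unadjusted t-test, which called 910 of all 10792 probes. In liver between CR and SD the member calls were 3, with 5 under median scaling, which added Nrf1 and Polrmt, and 1 by the t-test after adjustment. Of all 11065 kept probes, 2954 were called in the main fit and 3227 under median scaling. Between muscle and liver on SD the member calls were 7, with 4 under neqc and 4 under quantile. The SRT2104 effect differed between tissues for 1 probe, with 2 under the scores as deposited, 3 over 27 arrays and 2 with the replicate block, and the CR effect for 1, with 0 under neqc, 0 as deposited and 0 under the other filter.

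With 1 array left out, the counts ranged from 2 to 5 (SRT2104 minus SD), 0 to 0 (CR minus SD) and 1 to 5 (SRT2104 minus CR) in muscle, from 0 to 0, 3 to 3 and 2 to 3 for the same comparisons in liver, from 5 to 8 between the tissues, from 1 to 3 for the SRT2104 effect and from 0 to 1 for the CR effect. The wider 12-array counts come with a larger background, 3431 of 10792 probes against 1162. Over all kept probes the other settings gave 813 to 3886 calls for SRT2104 minus SD in muscle (main 1162), 1 to 910 for CR minus SD (49), 463 to 3674 for SRT2104 minus CR (1152), and in liver 12 to 1743 (350), 2085 to 3915 (2954) and 2781 to 4534 (2999). Between the tissues they gave 6467 to 10250 (9613), for the SRT2104 effect 675 to 2589 (990) and for the CR effect 117 to 898 (312).

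Replicate numbers were not taken to pair the arrays. No label says that they do, although the names of the intensity columns hold numbers that recur in muscle and liver. Same-numbered pairs correlated at over 0.1 in their deviations in 8 of 15 cases in liver (-0.251 to 0.306), 7 of 15 in muscle (-0.135 to 0.222) and 6 of 15 across tissues (-0.124 to 0.363). In none of the comparisons did all 5 pairs do so, but 1 low pair is enough for that, so pairing is not excluded. Between muscle and liver on SD, r was 0.363, 0.133, 0.29, 0.13 and -0.124 for replicates 1 to 5. With the replicate block, no other member count moved by over 1.5 times. Gabpa was detected on 10 of 15 muscle arrays, and its differences there rest on signals near background.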
